A study of Mus musculus with 5 samples.

Results

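DNA replication genes were followed through 5 RNA-seq libraries of mouse embryonic fibroblasts (MEFs), which are connective-tissue cells cultured from embryos. The group holds 38 genes named for their textbook role in copying DNA, and rows were matched on gene symbol. All 38 genes were found, at 43 of the 61082 loci in each deposited table. Mcm2, Orc5 and Pcna were read from loci joined with a neighbouring gene (Podxl2, Gm15421 and Tmem230), so their values are those of the joined locus. For Orc1, Rrm1 and Fen1, which had more than 1 locus, the locus with the highest mean level was used.

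The libraries were Prep1-hypomorphic MEFs overexpressing Meis1 (M), Prep1 (P) or both (MP), Prep1-hypomorphic MEFs infected with an empty vector (EV), and Prep1 wild-type MEFs (WT). Meis1 and Prep1 are homeobox transcription factors of the TALE class, and the hypomorphic cells carry an allele of reduced Prep1 expression. All 5 lines are of C57BL/6 background at passage 30, and the growth protocol, which is the same text for every line, gives E14.5 embryos and names hypomorphic ones. The promoter that drives each transgene, the number of clones per line and any vector in WT are not given in the sources used here. Each group is 1 library, with no replicates, and no p-value or SD can be given. Every comparison is between libraries; Prep1 genotype, line of origin and infection cannot be told apart where WT is involved. Fewer cycling cells and less RNA per cell cannot be told apart in such bulk samples.

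Levels are given in scaled units, that is, FPKM (fragments per kilobase of transcript and per depth, a level per length) after the upper quartile of single-gene loci was set to 10 in each library. As deposited, that quartile spanned 9.63 FPKM (MP) to 429 FPKM (M), and read depth is unknown. Between the quartile and the top percentile the levels grew 2.05-fold in M, 1.84-fold in P, 1.96-fold in MP, 2.1-fold in EV and 1.75-fold in WT. The top of the scale is thus stretched to a different extent in each library, and highly expressed genes as a class stand higher in EV and lower in P and WT. For that reason the medians of the 38 genes are set beside those of 5613 highly expressed genes, single-gene loci with a mean of 10 scaled units or more. With joined loci included, 36 of the 38 replication genes reach that mean. The medians are also set beside quantile-normalised values, in which the libraries share 1 distribution. Differences are log2((level + 1)/(level + 1)). Meis1 stood at 16.8 scaled units in M, 8.86 in P, 15.4 in MP, 8.32 in EV and 12.4 in WT. Pknox1, which encodes Prep1, stood at 3.25 in M, 0.554 in P, 0.569 in MP, 2.16 in EV and 11 in WT; it goes against the labels P and MP, which are therefore written as the libraries labelled P and MP. Of 12 fibroblast markers, 10 (EV) or 11 reached 5 scaled units, and their summed level was 144 in M, 135 in P, 150 in MP, 157 in EV and 122 in WT; Lum was at or below 1.92. None of 7 epithelial, 6 endothelial and 5 muscle markers reached 5, with sums of at most 3.58, 2.02 and 1.33; Myod1 was listed at 0 in every library but EV, Tie1 in P, MP and WT, Krt5 in P and MP, Epcam in M and Krt18 in WT. Of 7 blood markers 2 reached 5, with sums between 40 (MP) and 29.8 (WT) and Emr1 at 0 in P, MP and WT, and of 5 neural markers 3 did, with sums of 32.7 (P) to 40 (EV) and Olig2 at 0 in P and MP. The blood sum rests on Cd68 (between 26.9 in EV and 18.2 in WT) and Cd14 (between 12 in P and MP and 9.57 in WT), while Ptprc, the marker of all white blood cells, was at or below 0.362. Both the fibroblast and the blood sum were lowest in WT, and the part of other cells in the results was not tested.

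Replication starts where the origin recognition complex (ORC) sits on DNA. Cdc6 and Cdt1 there load the ring of Mcm2 to Mcm7, which becomes the active helicase once Cdc45 and the GINS complex join it. Primase and the polymerases then copy both strands, PCNA clamps the polymerases to DNA, RFC loads PCNA, and ribonucleotide reductase and thymidylate synthase supply nucleotides. Transcription of many of these genes is raised at the entry to S phase by E2F factors, so they are widely read as marks of proliferating cells, while several ORC genes vary little through the cycle.

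**Figure D1:**
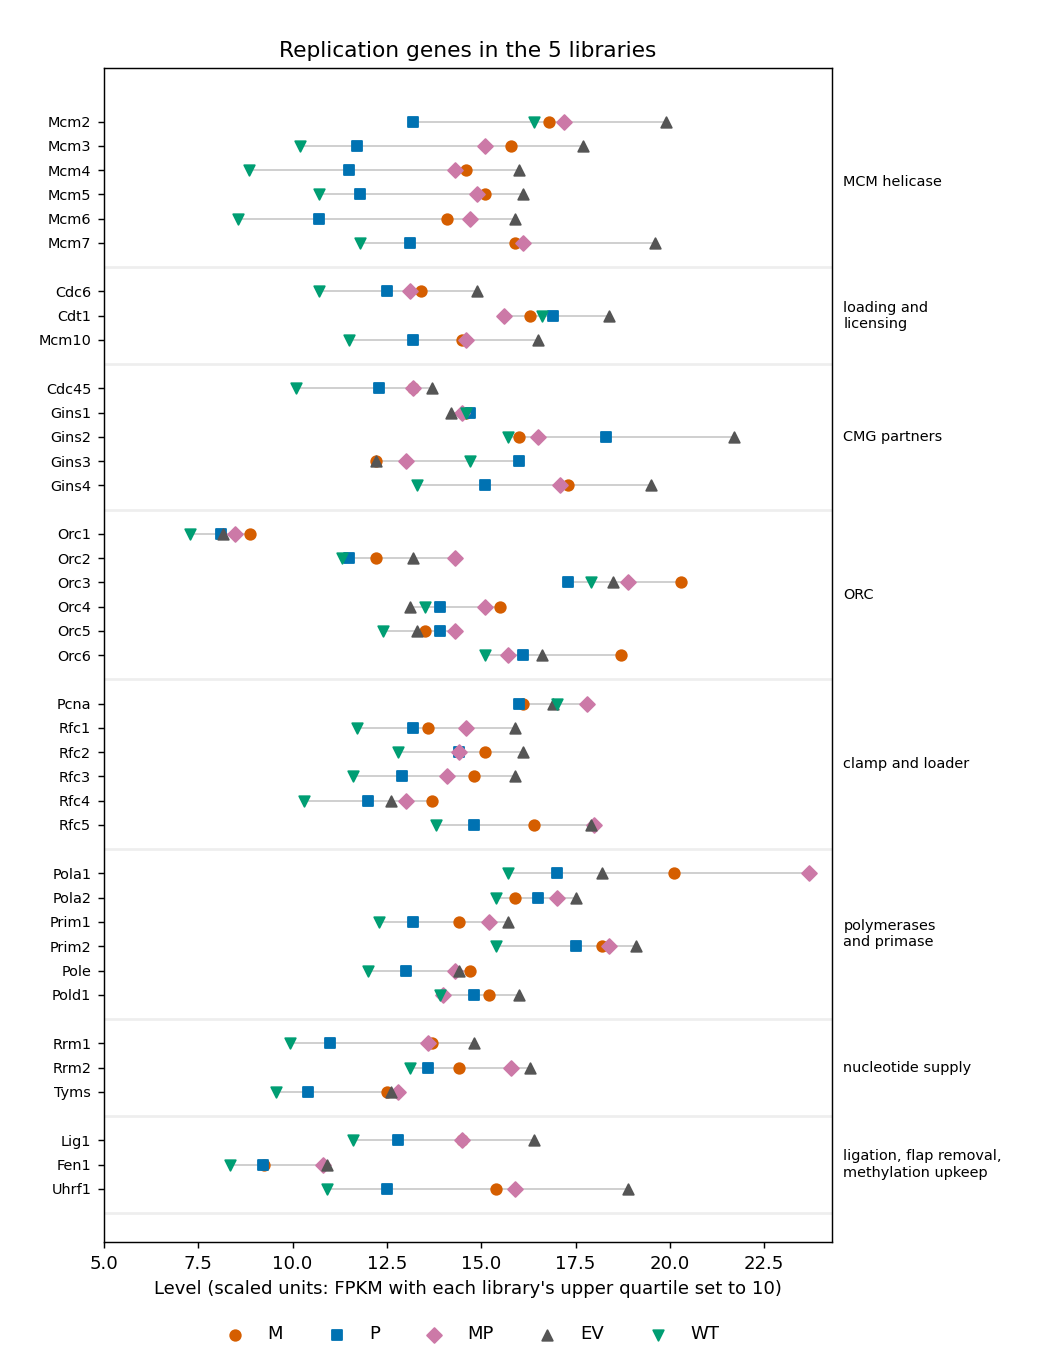
Level of each replication gene (x axis, scaled units) in the libraries M, P, MP, EV and WT, 1 symbol per library and 1 row per gene, grouped by complex; grey lines join the lowest and highest library. Mcm6 runs between 15.9 in EV and 8.56 in WT, whereas Gins1 lies between 14.2 and 14.7 in all 5 libraries.

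Every replication gene was at 7.29 scaled units or more in every library. These units are narrow at the top: in MP, Pola1 at 23.7 stood above the collagen gene Col1a2 at 20. Whether the units rise in proportion to RNA was not tested. Folds and log2 ratios are therefore those of the units and may differ from folds of RNA. The 38 genes had a median level of 14.8 scaled units in M, 13.2 in P, 14.7 in MP, 16.1 in EV and 12.2 in WT. Ranked among the 22338 single-gene loci at 1 FPKM or more in any library, the median gene stood at percentile 92.4 in M, 91.9 in P, 91.9 in MP, 93.8 in EV and 89.4 in WT. Orc1 was the lowest member in all 5 libraries, at 7.29 to 8.87 scaled units. EV held the highest level of 24 of the 38 genes and WT the lowest of 31, or 63.2% and 81.6%. Among the highly expressed genes EV was highest for 40% and WT lowest for 64.5%, so part of that order is shared by genes of any function. After quantile normalisation the counts were 17 and 22 of the 38, against 20.5% and 42% of the highly expressed genes. Under both scalings these shares were higher among replication genes, a description for which no test was made.

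Genes of the helicase ring differed widely between the libraries. Mcm6 stood at 14.1 scaled units in M, 10.7 in P, 14.7 in MP, 15.9 in EV and 8.56 in WT. Mcm4 stood at 14.6 in M, 11.5 in P, 14.3 in MP, 16 in EV and 8.85 in WT. Mcm3 stood at 15.8 in M, 11.7 in P, 15.1 in MP, 17.7 in EV and 10.2 in WT. These 3 genes took the same steps, high in EV, slightly lower in M and MP, lower in the library labelled P and lowest in WT. Mcm5 stood at 15.1 in M, 11.8 in P, 14.9 in MP, 16.1 in EV and 10.7 in WT, and Mcm7 at 15.9 in M, 13.1 in P, 16.1 in MP, 19.6 in EV and 11.8 in WT. The joined Mcm2 locus stood at 16.8 in M, 13.2 in P, 17.2 in MP, 19.9 in EV and 16.4 in WT, and so did not share the low WT value. All 6 genes were lower in the library labelled P than in each of M, MP and EV, and all 6 were highest in EV, on the scaled and on the quantile-normalised values. Of the highly expressed genes, 61.3% were lower in P than in each of M, MP and EV on scaled values and 34.9% on quantile-normalised values.

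The rank of a gene within its library does not depend on how the library is scaled, and it gave the same picture for Mcm3 to Mcm7. Mcm6 stood at percentile 90.1 in M, 78 in P, 92.1 in MP, 93.4 in EV and 68.8 in WT. Mcm4 stood at 91.7 in M, 81.9 in P, 90.3 in MP, 93.6 in EV and 69.9 in WT. Mcm2 kept a high rank, between 91.9 in P and 98.7 in EV. The mean level of the 6 helicase genes over that of the 6 ORC genes, a ratio taken inside each library, was 1.04 in M, 0.892 in P, 1.06 in MP, 1.27 in EV and 0.858 in WT. Without the joined Mcm2 and Orc5 loci it was 0.998 in M, 0.88 in P, 1.04 in MP, 1.22 in EV and 0.771 in WT. In scaled units the helicase mean thus exceeded that of ORC most in EV and was below it in the library labelled P and in WT.

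**Figure D2:**
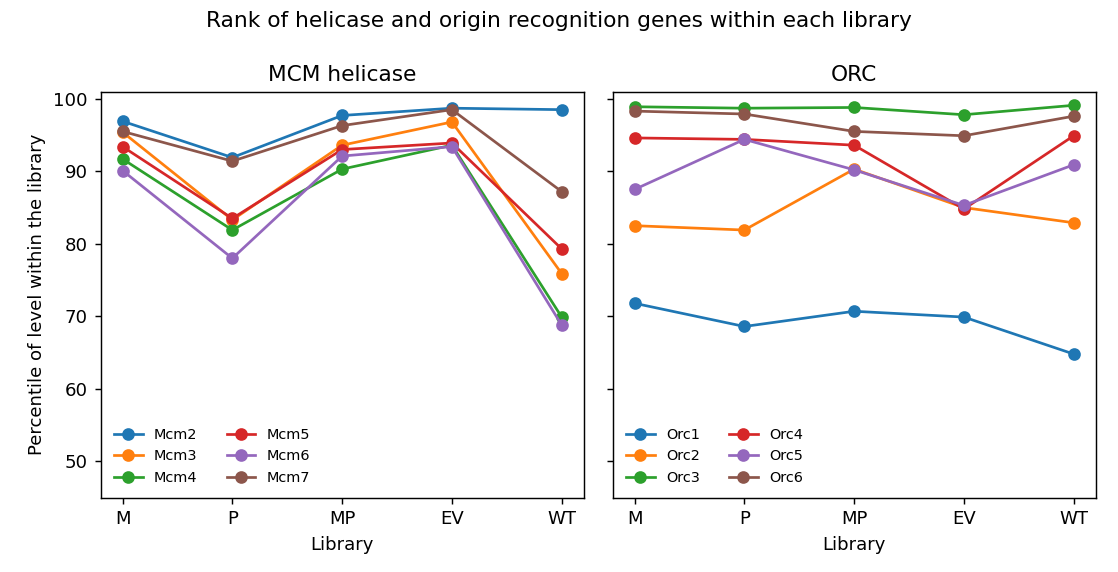
Percentile of each gene's level within its own library (y axis) for the 6 helicase genes and the 6 ORC genes in M, P, MP, EV and WT (x axis; lines join the values of 1 gene and imply no order). Mcm3 to Mcm7 dip in P and WT, with Mcm6 at 78 and 68.8, while no ORC gene other than Orc1 has a lower rank in WT than Orc2, at 82.9.

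The promoters of these genes were searched for letters that E2F factors bind. Promoter windows of RefSeq (build GRCm38.p6) were matched by symbol for 31 of the 38 genes, and the 250 bases before the start were read. The E2F letters were TTTCCCGC, TTTCGCGC, TTTGCCGC and TTTGGCGC on either strand, with overlaps counted. They occurred in 10 of the 31 genes (32.3%), against 2.16% of all 27025 genes in the same table. Mcm5, Mcm6, Mcm7, Cdc6, Gins3, Orc1, Orc3, Rfc3, Pola1 and Uhrf1 held them. The NF-Y letters CCAAT, on either strand, were in 20 of 31 genes (64.5%) against 37.5% of all genes, and in all 5 helicase genes with a window. AP-1 letters, TGACTCA or TGAGTCA, were in 0 of 31 against 5.16%, and the TALE letters TGACAG, on either strand, were in 5 of 31 (16.1%) against 18%. Matches are a description of these windows and not of bound sites. The following stretches of 200 bases end just before the start site, run 5′ to 3′ on the gene's strand, and have the E2F letters in capitals; Mcm5, Mcm6 and Uhrf1 are shown as genes that differed most between EV and WT among holders of the letters (with Mcm7), and Gins3 and Orc3 as holders that did not follow them, a choice made after their values were seen.
Mcm5, chr8:75109309-75109508, plus strand: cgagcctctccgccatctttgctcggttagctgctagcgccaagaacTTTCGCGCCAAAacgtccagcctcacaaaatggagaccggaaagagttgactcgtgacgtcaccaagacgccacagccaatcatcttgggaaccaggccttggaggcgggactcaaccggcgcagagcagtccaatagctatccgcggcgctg
Mcm6, chr1:128359706-128359905, minus strand: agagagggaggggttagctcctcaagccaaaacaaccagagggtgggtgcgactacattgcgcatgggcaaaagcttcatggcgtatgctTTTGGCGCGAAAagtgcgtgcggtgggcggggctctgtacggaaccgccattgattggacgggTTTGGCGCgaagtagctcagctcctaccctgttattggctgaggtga
Uhrf1, chr17:56304113-56304312, plus strand: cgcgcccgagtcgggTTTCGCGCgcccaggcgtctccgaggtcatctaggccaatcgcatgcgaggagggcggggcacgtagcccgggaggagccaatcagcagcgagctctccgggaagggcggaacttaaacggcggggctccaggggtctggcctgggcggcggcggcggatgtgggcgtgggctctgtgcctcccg
Gins3, chr8:95633359-95633558, plus strand: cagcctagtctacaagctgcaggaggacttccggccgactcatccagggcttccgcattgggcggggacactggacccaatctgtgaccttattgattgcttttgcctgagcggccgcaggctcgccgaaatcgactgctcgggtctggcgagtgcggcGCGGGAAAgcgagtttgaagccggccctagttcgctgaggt
Orc3, chr4:34614943-34615142, minus strand: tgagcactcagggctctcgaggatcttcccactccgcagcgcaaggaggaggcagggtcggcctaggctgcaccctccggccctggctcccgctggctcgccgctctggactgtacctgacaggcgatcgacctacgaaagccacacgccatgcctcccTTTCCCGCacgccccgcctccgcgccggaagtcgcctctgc
Mcm6 holds 3 matches, of which the first 2, from -110 to -103 and from -106 to -99 counted from the start, overlap; the third lies from -47 to -40. Mcm5 holds 2 that overlap, from -153 to -146 and from -149 to -142. Orc3 and Gins3 hold 1 each, both from -41 to -34. Genes with these letters lay at both ends of the difference between EV and WT: the log2 ratio of EV over WT was 0.82 for Mcm6 and 0.74 for Uhrf1, but 0.04 for Orc3 and -0.25 for Gins3.

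The loading factors moved less than the ring they load. Cdc6, an ATPase that joins ORC, stood at 13.4 scaled units in M, 12.5 in P, 13.1 in MP, 14.9 in EV and 10.7 in WT. Cdt1, its partner in loading, stood at 16.3 in M, 16.9 in P, 15.6 in MP, 18.4 in EV and 16.6 in WT. Mcm10, which helps to activate the loaded helicase and is not part of the ring, stood at 14.51 in M, 13.17 in P, 14.59 in MP, 16.53 in EV and 11.50 in WT. Cdc6 and Mcm10 followed the order of the ring, while Cdt1 in the library labelled P and in WT was level with M and MP.

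The partners that complete the active helicase did not move as 1 unit. Cdc45 stood at 13.2 scaled units in M, 12.3 in P, 13.2 in MP, 13.7 in EV and 10.1 in WT. Gins4 stood at 17.3 in M, 15.1 in P, 17.1 in MP, 19.5 in EV and 13.3 in WT, and Gins2 at 16 in M, 18.3 in P, 16.5 in MP, 21.7 in EV and 15.7 in WT. Gins2 was thus set apart by its EV level. Gins1 was nearly even, at 14.58 in M, 14.68 in P, 14.51 in MP, 14.19 in EV and 14.56 in WT. Gins3 ran the other way, at 12.2 in M, 16 in P, 13 in MP, 12.2 in EV and 14.7 in WT, and its percentile was 82.5 in M, 97.9 in P, 85 in MP, 81.9 in EV and 97.1 in WT. The 4 genes encode subunits of the same complex, yet their orders over the libraries differed.

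ORC genes showed a narrow spread on scaled values. Orc3 stood at 20.3 scaled units in M, 17.3 in P, 18.9 in MP, 18.5 in EV and 17.9 in WT. Orc6 stood at 18.7 in M, 16.1 in P, 15.7 in MP, 16.6 in EV and 15.1 in WT. Orc2 stood at 12.2 in M, 11.5 in P, 14.3 in MP, 13.2 in EV and 11.3 in WT. The highest library exceeded the lowest by 1.15-fold (the joined Orc5 locus) to 1.27-fold (Orc2), against 1.5-fold (Mcm5) to 1.85-fold (Mcm6) in the helicase. Orc4 stood at 15.5 in M, 13.9 in P, 15.1 in MP, 13.1 in EV and 13.5 in WT, and the joined Orc5 locus at 13.5 in M, 13.9 in P, 14.3 in MP, 13.3 in EV and 12.4 in WT. No ORC gene was highest in EV; 4 were highest in M and 2 in MP. Orc1, whose protein is known to vary through the cycle in human cells, stood at 8.87 in M, 8.11 in P, 8.48 in MP, 8.16 in EV and 7.29 in WT. On quantile-normalised values Orc1 set itself apart, with a log2 ratio of EV over WT of 0.34, near Mcm5 at 0.37. The other ORC genes then lay between -0.25 (Orc4) and 0.05 (Orc2).

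The joined locus that holds the sliding clamp and the genes of its loader parted as well. The joined Pcna locus stood at 16.1 scaled units in M, 16 in P, 17.8 in MP, 16.9 in EV and 17 in WT, with no lower value in WT. How much of that level is Pcna and how much Tmem230 cannot be told, so a difference between clamp and loader was not tested. Rfc3, a small subunit of the loader, stood at 14.8 in M, 12.9 in P, 14.1 in MP, 15.9 in EV and 11.6 in WT. Rfc1, its large subunit, stood at 13.6 in M, 13.2 in P, 14.6 in MP, 15.9 in EV and 11.7 in WT. All 5 Rfc genes were lowest in WT on scaled values, as were 64.5% of highly expressed genes, and Rfc1, Rfc2 and Rfc3 were highest in EV. After quantile normalisation Rfc2 was neither lowest in WT nor highest in EV. Rfc4 stood at 13.7 in M, 12 in P, 13 in MP, 12.6 in EV and 10.3 in WT, and Rfc5 at 16.4 in M, 14.8 in P, 18 in MP, 17.9 in EV and 13.8 in WT. Rfc2 stood at 15.1 in M, 14.4 in P, 14.4 in MP, 16.1 in EV and 12.8 in WT.

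Polymerase and primase genes held high, nearly even levels apart from Pola1. Pola1, the catalytic subunit of the polymerase that starts each strand, stood at 20.1 scaled units in M, 17 in P, 23.7 in MP, 18.2 in EV and 15.7 in WT, the highest level of any replication gene in any library being that of MP. Its partner Pola2 stood at 15.9 in M, 16.5 in P, 17 in MP, 17.5 in EV and 15.4 in WT and did not share that peak. Prim1, the catalytic subunit of primase, stood at 14.4 in M, 13.2 in P, 15.2 in MP, 15.7 in EV and 12.3 in WT. Prim2, its large subunit, stood at 18.2 in M, 17.5 in P, 18.4 in MP, 19.1 in EV and 15.4 in WT. Both primase genes were highest in EV on scaled values, as were 40% of highly expressed genes, but neither was after quantile normalisation. Pole, the catalytic subunit for the leading strand, stood at 14.7 in M, 13 in P, 14.3 in MP, 14.4 in EV and 12 in WT. Pold1, that of the lagging strand, stood at 15.2 in M, 14.8 in P, 14 in MP, 16 in EV and 13.9 in WT. All 6 genes were lowest in WT on scaled values, but by amounts close to those of highly expressed genes at large, as given below. After quantile normalisation only Prim1, Prim2 and Pole were lowest in WT.

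Nucleotide supply followed the helicase at smaller amplitude. Rrm1, the large subunit of ribonucleotide reductase, stood at 13.7 scaled units in M, 11 in P, 13.6 in MP, 14.8 in EV and 9.92 in WT. Rrm2, its small subunit, stood at 14.4 in M, 13.6 in P, 15.8 in MP, 16.3 in EV and 13.1 in WT. Tyms, thymidylate synthase, stood at 12.5 in M, 10.4 in P, 12.8 in MP, 12.6 in EV and 9.56 in WT. Rrm1 and Tyms in the library labelled P lay between WT and the other 3 libraries. Among the genes that finish new DNA, Uhrf1, which brings the maintenance methyltransferase to newly copied sites, stood at 15.4 in M, 12.5 in P, 15.9 in MP, 18.9 in EV and 10.9 in WT. Lig1, which seals nicks, stood at 14.52 in M, 12.80 in P, 14.53 in MP, 16.37 in EV and 11.63 in WT. Uhrf1 varied as widely as the helicase genes (1.73-fold), whereas Fen1, the flap nuclease, stood at 9.25 in M, 9.22 in P, 10.8 in MP, 10.9 in EV and 8.34 in WT, and the other Fen1 locus at 9.48 in M, 8.71 in P, 10.3 in MP, 11.1 in EV and 8.69 in WT.

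The library labelled P was compared with EV. Pknox1 was lower in P (0.554 scaled units) than in EV (2.16), against the label, so an effect of added Prep1 was not tested. Helicase genes were the furthest below EV, with a median log2 ratio of -0.54 and values between -0.56 (Mcm2) and -0.42 (Mcm5), and Uhrf1 was at -0.56. ORC genes had a median of -0.03, polymerase and primase genes -0.11, clamp and loader genes -0.20, nucleotide supply genes -0.25 and loading factors -0.23. Gins3 was the highest at 0.37. In all, 34 of 38 genes were below EV, with a median of -0.23, against 76.6% and -0.13 for highly expressed genes. No replication gene was at least 1.5-fold lower or higher. Of the 11163 genes kept, 5.14% were at least 1.5-fold lower and 2.43% higher, and of highly expressed genes 2.46% and 0.143%. With a pseudocount of 0.1, 3 replication genes were at least 1.5-fold lower. On quantile-normalised values the helicase stood at -0.36 and Uhrf1 at -0.38, but the median of the 38 genes was -0.04, the polymerase and primase genes were at 0.09 and the ORC genes at 0.14, both above 0. The helicase was thus lower under both scalings, whereas the lower median of the whole set was close to 0 under one of them.

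**Figure D3:**
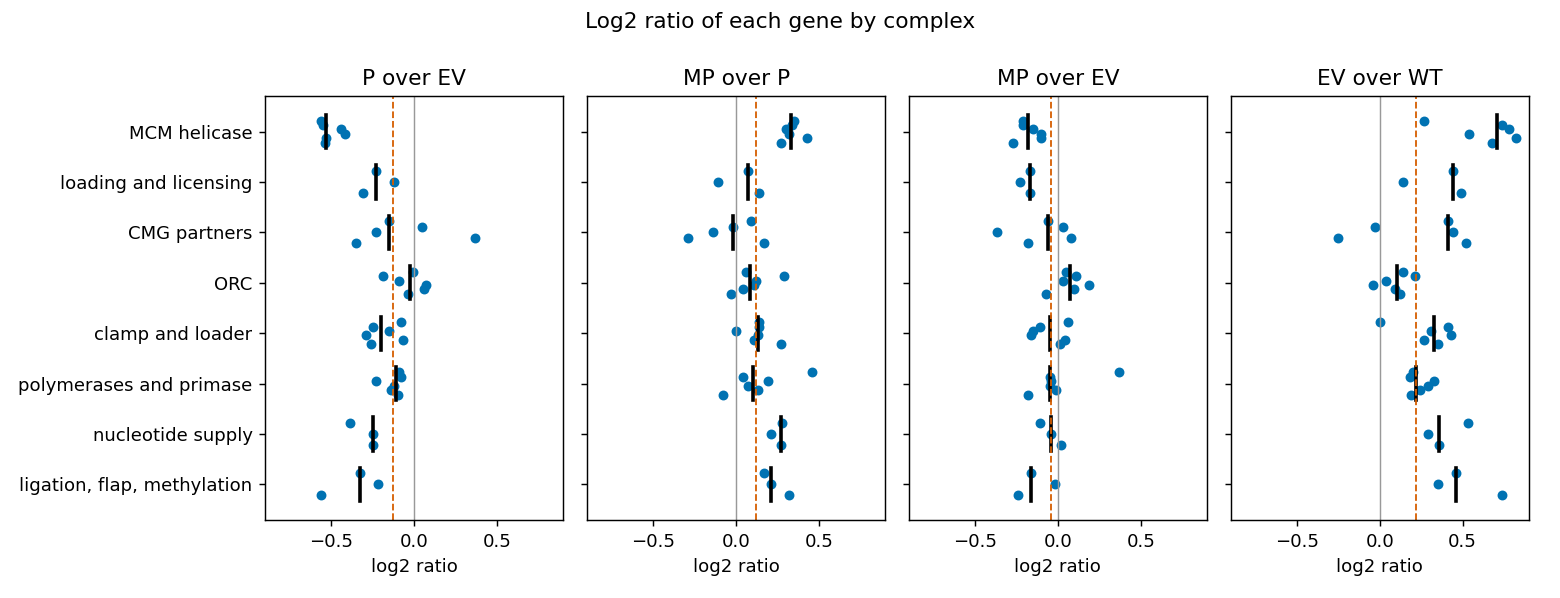
Log2 ratio of each replication gene (points) by complex, for P over EV, MP over P, MP over EV and EV over WT; black bars are medians of a complex and the dashed line is the median of genes with a mean of 10 scaled units or more. In P over EV the 6 helicase genes lie between -0.56 and -0.42, left of the dashed line at -0.13, and in EV over WT their median is 0.71 against 0.22.

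Meis1-overexpressing cells were compared with cells without it, as M against EV and, where Prep1 was labelled as added too, as the library labelled MP against that labelled P; these 2 comparisons share no library. In M, replication genes were slightly below EV, with a median log2 ratio of -0.11 and 29 of 38 genes below 0, against -0.03 and 59.6% for highly expressed genes. Gins2 (-0.42), Mcm7 (-0.29) and Uhrf1 (-0.28) were lowest and Orc4 (0.23), Orc6 (0.17) and Pola1 (0.14) highest. None was 1.5-fold apart, against 2.73% of 11144 genes at least 1.5-fold lower and 1.53% at least 1.5-fold higher. Of highly expressed genes, 0.338% were lower and 0.125% higher by that fold, so the lack of calls is near that background. In MP, 32 of 38 genes were above P, with a median of 0.14, against 74.4% and 0.12 for highly expressed genes. The helicase genes had a median of 0.33, between 0.27 for Mcm7 and 0.43 for Mcm6. Outside the helicase, Pola1 (0.46), Uhrf1 (0.32), Orc2 (0.29), Rrm1 (0.28), Tyms (0.27) and Rfc5 (0.27) were highest and Gins3 (-0.29), Gins2 (-0.14) and Cdt1 (-0.11) lowest. None was 1.5-fold apart, against 1.44% of 10771 genes at least 1.5-fold higher and 5.07% at least 1.5-fold lower. Of highly expressed genes, 0.713% were higher and 0.624% lower by that fold, again near the lack of calls. On quantile-normalised values the helicase stood at 0.23 in MP over P and -0.08 in M over EV, and the whole set at 0.03 and -0.04. With the median as the scale, the whole set stood at 0.54 in MP over P and 15 genes passed 1.5-fold.

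No replication gene was 1.5-fold apart between the library labelled MP and EV, or between it and M. Of 11034 genes kept in MP over EV, 5.02% were at least 1.5-fold lower and 1.15% higher. Of 10855 kept in MP over M, 3.14% were lower and 0.875% higher by that fold. Of highly expressed genes, 0.713% were lower and 0.143% higher in MP over EV, and 0.232% and 0.0891% in MP over M. The lack of calls among replication genes is thus near the background of highly expressed genes. Against EV the median of the replication genes was -0.06, beside -0.04 for highly expressed genes, with -0.18 for the helicase, 0.07 for ORC, -0.04 for polymerase and primase genes and -0.05 for the clamp and loader. Gins2 (-0.37) and Pola1 (0.37) were at the ends. Against M the median was 0.00, as for highly expressed genes, with 20 genes above and 18 below, and the helicase genes lay between -0.06 (Mcm3) and 0.06 (Mcm6). Orc6 (-0.24), Pold1 (-0.11) and Orc3 (-0.10) were lowest and Pola1 (0.22), Orc2 (0.22) and Fen1 (0.20) highest against M. On quantile-normalised values the medians were -0.01 against EV and 0.00 against M, but with the median as the scale they were 0.37 and 0.38, with 2 and 3 genes at least 1.5-fold higher. The direction of MP over EV therefore depended on the scaling.

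The hypomorphic lines were compared with WT to ask what reduced Prep1 goes with. Helicase genes stood well above WT in EV, at a median log2 ratio of 0.71, with Mcm6 at 0.82, Mcm4 at 0.78, Mcm3 at 0.74, Mcm7 at 0.68, Mcm5 at 0.54 and Mcm2 at 0.27. Uhrf1 (0.74), Rrm1 (0.53), Gins4 (0.52), Mcm10 (0.49) and Lig1 (0.46) were also higher in EV, and Gins3 (-0.25), Orc4 (-0.04) and Gins1 (-0.03) lowest. Mcm3, Mcm4, Mcm6, Mcm7 and Uhrf1 were at least 1.5-fold higher in EV, which is 13.2% of the replication genes, against 9.52% of 11657 genes kept and 8.16% of highly expressed genes; the share over the whole set is near the background. The median of the 38 genes was 0.32 and 34 were above 0, against 0.22 and 80.3% for highly expressed genes. On quantile-normalised values the median was 0.13 and 3 genes stayed 1.5-fold higher, with Mcm6 at 0.79, Mcm4 at 0.73 and Mcm3 at 0.60; the helicase stood at 0.52, nucleotide supply at 0.33, ORC at -0.14 and polymerase and primase genes at -0.03, so the last 2 changed direction. The count of genes at least 1.5-fold higher was 25 with the median as the scale and 1 with the upper quartile of loci expressed in all 5 libraries.

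The other hypomorphic lines gave the helicase the same direction over WT, and all of these comparisons share the WT library. In M, the median log2 ratio of the helicase was 0.52, and Mcm6 (0.66), Mcm4 (0.66) and Mcm3 (0.59) were at least 1.5-fold higher, 7.89% of the replication genes against 6.78% of 11535 genes kept and 3.9% of highly expressed genes. In the library labelled MP the helicase stood at 0.48, and Mcm6 (0.72) and Mcm4 (0.64) were at least 1.5-fold higher, with Pola1 just short at 0.57, which is 5.26% of the replication genes against 4.95% of 11317 genes kept and 3.74% of highly expressed genes. With the upper quartile of loci expressed in all 5 libraries these counts were 0 in both comparisons, and with the median as the scale they were 25 in M and 38 in MP. In the library labelled P it stood at 0.16, with Mcm4 at 0.34, Mcm6 at 0.29 and the joined Mcm2 locus at -0.29, and no replication gene was 1.5-fold apart, against 3.37% of 11404 genes kept and 0.713% of highly expressed genes at least 1.5-fold higher; with the median as the scale 6 were. The medians of the 38 genes over WT were 0.24 in M, 0.13 in P and 0.28 in MP, beside 0.20, 0.08 and 0.20 for highly expressed genes. Of the 4 hypomorphic lines, the library labelled P was closest to WT for Mcm3 to Mcm7 and furthest from it for the joined Mcm2 locus, which it held below WT.

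**Figure D4:**
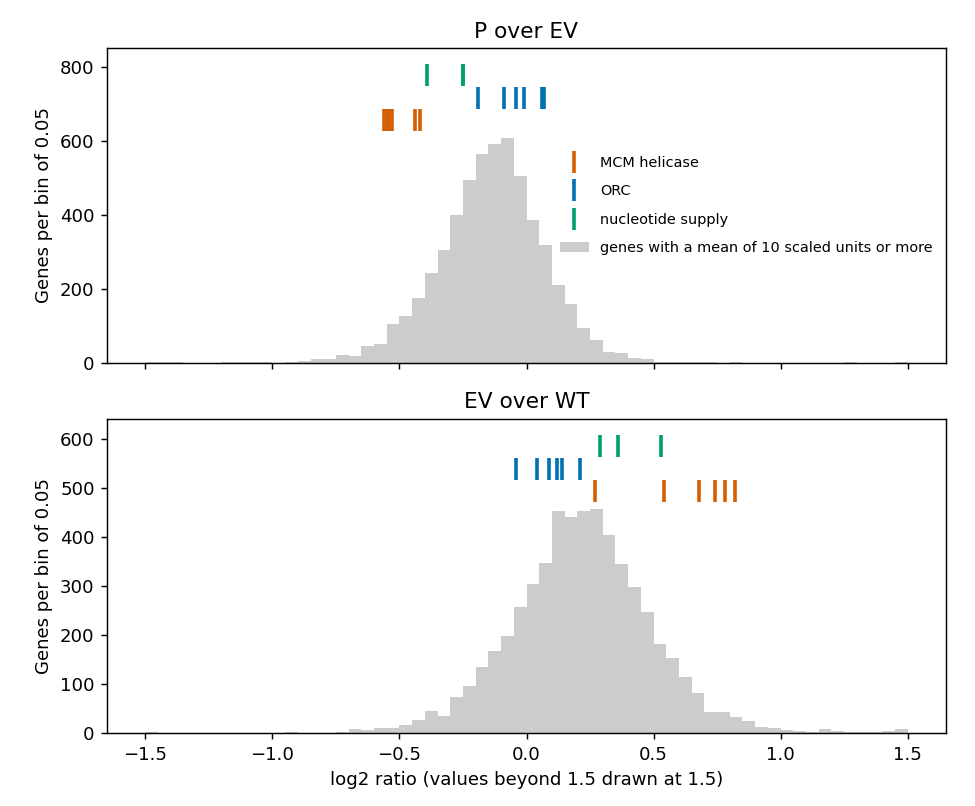
Number of genes with a mean of 10 scaled units or more (grey bars, bins of 0.05) by log2 ratio of P over EV and of EV over WT; coloured ticks mark single genes of the MCM helicase, ORC and nucleotide supply. Mcm3 to Mcm7 lie to the left in P over EV, at -0.55 to -0.42, and to the right in EV over WT, at 0.54 to 0.82, whereas ORC genes lie between -0.04 and 0.21 in EV over WT.

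Other genes of the pathway were read from lists of 40 replication and fork genes, 16 nucleotide supply genes and 28 regulators of S-phase entry. In EV over WT the fork genes had a median log2 ratio of 0.23, with 31 of 40 (77.5%) above 0, beside 0.22 and 80.3% for highly expressed genes. Of the 40, 3 (7.5%) were at least 1.5-fold higher, under the 9.52% of genes kept and 8.16% of highly expressed genes, so the list as a whole lay at the background. The 3 were Rpa1 (0.86), the large subunit of the protein that coats single-stranded DNA, Tipin (0.81), a fork protection factor, and Top2a (0.77), which untangles finished strands. Rpa1 stood at 15.7 scaled units in M, 11.1 in P, 15.5 in MP, 17.8 in EV and 9.32 in WT, and so had the same order as Mcm4. In P over EV, Top2a (-0.64) and Rpa1 (-0.63) were at least 1.5-fold lower, which is 5% of the list. Of genes kept 5.14% were, and of highly expressed genes 2.46%. Nucleotide supply genes stood at a median of 0.36 in EV over WT, with 15 of 16 (93.8%) above 0, beside 0.22 and 80.3% for highly expressed genes, and 2 (12.5%) were at least 1.5-fold higher. Impdh2, which was read from a joined locus, was at 0.70. Paics, like it an enzyme of purine synthesis, was at 0.92, at -0.60 in P over EV and at 0.52 in MP over P. It was the 1 gene of this list at least 1.5-fold lower in P over EV, which is 6.25% of 16 against the same backgrounds. Dut, which removes dUTP, ran the other way at -0.56 in EV over WT, with 14.7 scaled units in M, 15.5 in P, 12.8 in MP, 11.7 in EV and 17.7 in WT.

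Regulators of S-phase entry had a median of 0.13 in EV over WT, with 20 of 27 genes kept (74.1%) above 0, both below the values of highly expressed genes. In each direction 1 gene was past 1.5-fold (3.7%), against 9.52% of genes kept higher and 13.6% lower. Of highly expressed genes, 8.16% were higher and 0.534% lower. The share of regulators that were lower was thus under that of genes kept and above that of highly expressed genes. Some regulators, such as E2f2, lie below the level of that class. Cdk4 (0.67), a kinase of the G1 phase, was at least 1.5-fold higher, and E2f6 (-0.70), a repressive E2F, at least 1.5-fold lower. E2f6 stood at 7.78 scaled units in M, 9.23 in P, 8.72 in MP, 7.95 in EV and 13.5 in WT. Tfdp1 (0.58), the partner that E2F factors need to bind DNA, lay just inside that bound. Cdkn1a, a CDK inhibitor, stood at 5.28 in M, 3 in P, 5.09 in MP, 3.41 in EV and 5.48 in WT, which gave 0.51 in M over EV and 0.61 in MP over P. It was the only regulator at least 1.5-fold higher in MP over P. That is 3.57% of 28, against 1.44% of 10771 genes kept and 0.713% of highly expressed genes. The helicase genes, which were also higher in MP than in P, were lower in M than in EV.

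The authors' deposited tables, which test 1 library against 1 on unscaled values, called 29 of 38 replication loci lower than EV in each of P, MP and WT. The other 9, Mcm5, Mcm7, Cdt1, Orc4, Pola2, Pold1, Tyms, Fen1 and Uhrf1, carry the status FAIL there. Of all single-gene loci, those tables called 43.3% lower in P, 41.2% in MP and 44.6% in WT, where the deposited values are lower throughout. Among single-gene loci with status OK, 9912 of 10039 were called lower in P, 9437 of 9516 in MP and 10205 of 10576 in WT. Nearly every locus that could be tested was thus called, replication gene or not. For M, 26 of the 38 were FAIL and 2, Gins1 (log2 1.49, q = 0.0134) and Pcna (log2 1.37, q = 2.25e-12), were called higher, against 4.39% of single-gene loci, in the authors' deposited table. In M, 12 replication loci had status OK, as did 5565 single-gene loci, of which 1004 were called higher. All of these calls rest on unscaled values and were not used to compare genes.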

How the data were processed

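RNA-seq of total RNA was deposited as 4 tables, each setting EV against 1 other library. The authors estimated FPKM per locus, per the file headers; TopHat, Cufflinks, Cuffdiff and the mm9 build are named in the submitters' processing notes. Versions, annotation, normalisation and read filters are not given in the sources used here. The authors deposited a p-value and a q-value for each pair of libraries, with loci called at q under 0.05. The deposited log2 ratios, of the other library over EV, are used where named as the authors'.

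Levels were scaled to an upper quartile of 10 over 22338 single-gene loci at 1 FPKM or more in any library, with EV from the M table (Python 3.11.15, pandas 2.3.3). Genes at 1 scaled unit or more in 1 of the 2 libraries were kept, with a pseudocount of 1 that understates changes of low genes, and called past 1.5-fold. How reads shared with near-identical copies were assigned is not given, nor is the use of strand. The scaling was run on simulated libraries, made from the EV profile with a constant factor each and small noise. Libraries of unequal shape, as found here, were not simulated, so that run cannot show how well the scaling suits them. Alternatives were pseudocounts of 0.1 and 0.5, no minimum or 5 units, deposited values, median, quantile and narrower upper-quartile scaling, the EV column of each table, summed loci and 2-fold. The background of genes with a mean of 10 units and the order counts were added after seeing the data. Members and lists were chosen with earlier results of these data known. Named genes were those past 1.5-fold, the 3 highest and lowest of each comparison and the ends of each complex; of other lists, up to 3 with the largest ratios each way. Promoters are from RefSeq on GRCm38.p6; no coordinates of the files were used. No per-sample column was left unmapped.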

Additional observations from a re-analysis of the deposited data

Results flagged for a closer look

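Added Meis1 went with opposite directions at replication genes with and without labelled added Prep1: the median log2 ratio was 0.14 in MP over P and -0.11 in M over EV, and 25 of 38 genes were above 0 in MP over P and below 0 in M over EV, which is 65.8% against 41.2% of highly expressed genes. After quantile normalisation the medians were 0.03 and -0.04 and the shares 39.5% and 21.1%, so the size of the contrast rests on the scaling. The complexes that changed sign in this way were the MCM helicase (0.33 in MP over P and -0.15 in M over EV), loading factors (0.07 and -0.17), clamp and loader (0.13 and -0.09), polymerases and primase (0.10 and -0.07), nucleotide supply (0.27 and -0.10) and the ligation, flap and methylation genes (0.21 and -0.22). After quantile normalisation opposite signs were left for the helicase (0.23 and -0.08), nucleotide supply (0.20 and -0.04) and the ligation, flap and methylation genes (0.21 and -0.19), but not for loading factors (-0.05 and -0.09), polymerases and primase (-0.02 and -0.01) or clamp and loader (0.00 and -0.02). With 1 library per group the difference was not tested. Highly expressed genes as a class stood at 0.12 in MP over P and -0.03 in M over EV.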

How the results depend on the processing

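No paired analysis was possible because each group holds 1 library, and for the same reason no library could be left out. Of the main medians and counts, 223 values under an alternative kept direction and size, and 52 moved and 2 reversed. The 223 are no measure of stability, since many had little room to change. A count of 0 that stayed at 0 was tallied as kept, and neither no minimum nor 5 units dropped any replication gene. Nearly all main medians and counts that moved or reversed rest on the scaling. On values as deposited they were 1.33 in M over EV, -4.04 in P over EV, -3.97 in MP over EV, -5.33 in MP over M, 0.07 in MP over P, 4.11 in EV over WT, 5.47 in M over WT, 0.09 in P over WT and 0.17 in MP over WT; all 38 genes passed 1.5-fold higher in M over EV, EV over WT and M over WT and lower in P over EV, MP over EV and MP over M, and 1 did in MP over WT. Among values that changed direction there were the helicase (1.28), loading factors (1.27), nucleotide supply (1.33) and ligation genes (1.20) in M over EV and ligation genes (-5.30) in MP over M, as did Meis1 in MP over EV (-3.01) and Pknox1 in EV over WT (1.44). With the median as the scale the medians were -0.05 in M over EV, 0.37 in MP over EV (the opposite direction, with helicase 0.25, loading 0.25 and ligation 0.26), 0.38 in MP over M, 0.54 in MP over P, 0.68 in EV over WT, 0.66 in M over WT, 0.52 in P over WT and 1.07 in MP over WT; genes at least 1.5-fold higher then numbered 2 in MP over EV, 3 in MP over M, 15 in MP over P, 25 in EV over WT, 25 in M over WT, 6 in P over WT and 38 in MP over WT. After quantile normalisation the medians were -0.04 in M over EV, -0.04 in P over EV, 0.03 in MP over P, 0.13 in EV over WT (3 genes higher), 0.08 in M over WT, 0.10 in P over WT and 0.13 in MP over WT. The sign was then the opposite for polymerase genes (0.09) and ORC (0.14) in P over EV, where the clamp was at 0.00, for polymerase genes (0.04) and nucleotide supply (0.04) in MP over EV, for loading factors (-0.05) and polymerase genes (-0.02) in MP over P, for ORC (-0.14) and polymerase genes (-0.03) in EV over WT, for ORC (-0.01) and the partners Cdc45 and GINS (-0.17) in M over WT, and for ORC (-0.03) and those partners (-0.10) in MP over WT. With an upper quartile over loci expressed in all 5 libraries they were -0.06 in M over EV, -0.07 in P over EV, 0.01 in MP over P, 0.10 in EV over WT (1 gene higher), 0.07 in M over WT (0 genes), 0.06 in P over WT and 0.09 in MP over WT (0 genes), with, among others of opposite sign, polymerase genes at 0.04 and ORC at 0.12 in P over EV, polymerase genes at -0.00 and ORC at -0.11 in EV over WT and ORC at -0.02 in MP over WT. At 2-fold no gene was called in EV over WT, M over WT or MP over WT (0 each). A pseudocount of 0.1 gave 3 genes lower in P over EV, and q under 0.01 left 1 of the authors' calls in M. The cause of these differences was not tested. Without counts, depth sets no interval on any value.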
